A study of Mus musculus with 18 samples.

Results

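LLC is a mouse lung carcinoma line that the labels assign to strain C57BL/6 and to lung adenocarcinoma. The comparison described here used 6 of the 18 RNA-seq libraries of a study of 2 mouse lung cancer lines in which the kinase DSTYK was altered. It sets 3 LLC libraries titled TPLKO_sh3_dox against 3 titled TPLKO_empty_dox, and follows the response across all genes of this line. Both groups carried the TPLKO vector and both received doxycycline, the drug that switches on Tet-controlled promoters, so they differ by title in the insert alone: the hairpin sh3 or none. The labels record DSTYK downregulation as the phenotype of both groups, so the titles alone assign the libraries. The titles name 1 hairpin construct in this line, and the labels do not say whether the cells were clones or pools, how the vector was controlled, or whether the 3 libraries of a group came from separate cultures. The p-values therefore rest on how far these libraries differ among themselves, which may be technical variation alone.

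DSTYK is a dual-specificity kinase, able to phosphorylate serine, threonine and tyrosine, and is grouped by sequence with the RIP kinases, a family known for signalling in cell death and inflammation. A short hairpin RNA is processed by the cell into a small RNA that guides the cleavage of a matching mRNA. Poly(A) RNA was sequenced on a stranded kit, and the authors deposited an estimated count for each transcript and library, summed here per gene. In such bulk RNA, fewer cells of a kind and less RNA per cell cannot be told apart.

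Library totals ranged from 41286153 to 46528071 estimated counts. Beyond sampling noise, replicates varied by a coefficient of 2.65%. Replicate libraries differed by more than sampling noise, with a mean chi-square per gene of 2.70 to 3.51 over the pairs within a group. The 10 most abundant genes took 5.48% to 5.58% of the counts in the empty-vector libraries and 6.20% to 6.23% in the sh3 libraries. Mitochondrially encoded genes took 4.03% to 4.15% and 4.49% to 4.55%, so these shares moved with the groups, and their part in the results below was not tested. Of the 13 mitochondrial genes 2 were higher and 8 lower: mt-Co1, a subunit of cytochrome oxidase, rose from 9199 ± 110.4 to 17698 ± 168 CPM, and mt-Cytb, of the cytochrome bc1 complex, fell from 3514 ± 52.2 to 1368 ± 11.7 CPM.

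Dstyk itself was measured at 42.8, 40.6 and 44.8 CPM with the empty vector and 22.7, 24 and 22.5 CPM with sh3. Every sh3 library lay below every empty-vector library, and Dstyk fell by 0.89 on the log2 scale (SE 0.0435, Benjamini-Hochberg adjusted p = 9.81e-10 by edgeR's quasi-likelihood test, adjusted over all tested genes). The transcript Dstyk-201 held 98.4% ± 0.452 of the gene's counts with the empty vector and 96.9% ± 0.806 with sh3. CPM here is a count scaled to library size and composition, and unless single libraries are listed, values are mean ± SD over the 3 libraries of a group, the empty vector first. Among the relatives of Dstyk in the RIP kinase family, Ripk1, an adaptor kinase of TNF receptor signalling, fell from 90.9 ± 1.39 to 56.9 ± 0.345 CPM. Lrrk2, a large kinase of endolysosomal traffic, rose from 112 ± 2.21 to 154 ± 2.2 CPM.

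Of 13767 genes with enough counts to test, 72.6% were called at an adjusted p under 0.05, 36.2% higher and 36.4% lower with sh3, so calls were the rule. The libraries of the groups did not overlap at 76.0% of the tested genes. Calls of at least 2-fold were less even, with 8.07% of genes higher and 4.15% lower. At 4-fold or more, 270 genes rose and 99 fell, and at 8-fold or more 65 rose and 32 fell. Most changes were small: the median size among called genes was 0.42 on the log2 scale, and the median change of all tested genes was 0.01. In what follows, "higher", "lower", "rose" and "fell" are used for genes that passed the edgeR test, and each group of genes is read against those background shares. The largest adjusted p among the genes named so was 0.01, and the libraries of the groups did not overlap for any of them. For the largest rises and falls given below, no overlap was a condition of the choice.

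Large rises outnumbered large falls at every level up to 64 CPM. Below 1 CPM, 390 of 2165 tested genes were at least 2-fold higher and 206 at least 2-fold lower, and from 1 to 8 CPM the numbers were 423 and 175 of 2227. From 8 to 64 CPM they were 251 and 144 of 5456. Above 64 CPM they were even, at 47 and 47 of 3919 genes, where calls of any size were 1464 higher and 1978 lower, and 87.8% of these genes were called against 31.5% of those under 1 CPM. Protein-coding genes made up 12775 of the tested genes, with 4815 higher and 4874 lower. Processed pseudogenes, whose reads can stem from their parent genes, were called in 27.6% of 767 cases. By chromosome, the median log2 change ran from -0.17 on chromosome 18, with 84 genes higher and 176 lower of 356, to 0.14 on chromosome 1, with 369 higher and 213 lower of 809.

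**Figure D1:**
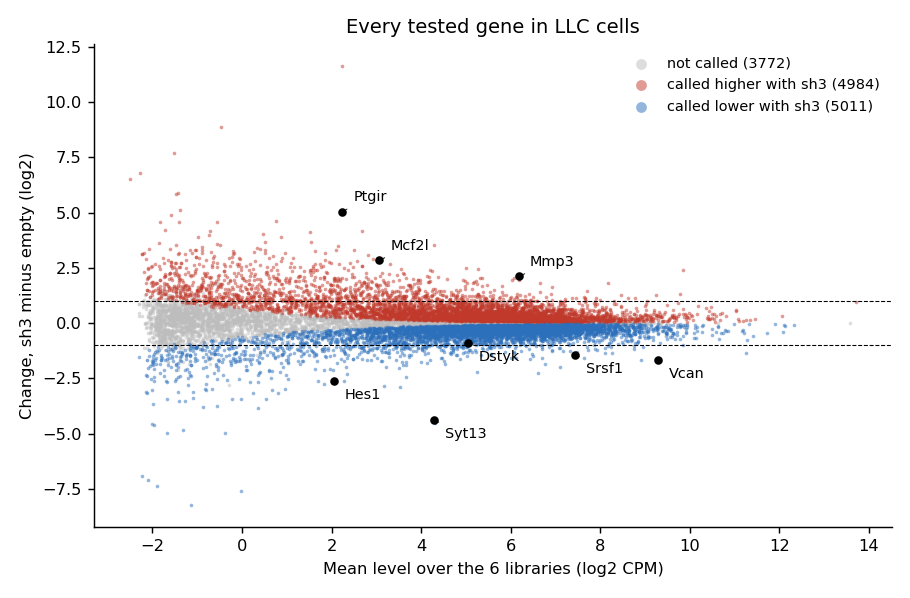
Each point is 1 of 13767 tested genes: the x axis is its mean level over the 6 libraries in log2 CPM, the y axis its log2 change (sh3 minus empty), and colour its call. Above 64 CPM most changes are small, with 1464 genes called higher and 1978 lower, and changes of at least 2-fold are more frequent at lower levels; the most extreme points are genes at or near 0 counts in a group, whose fitted change is no measured fold, and Dstyk, Ptgir, Mcf2l, Mmp3, Syt13, Hes1, Srsf1 and Vcan are marked.

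Several of the largest rises are given here with their values, from genes of at least moderate level whose groups did not overlap. Mcf2l, an exchange factor that activates small GTPases, was measured at 1.93, 1.75 and 2.31 CPM with the empty vector and 14.6, 13.9 and 14.6 CPM with sh3. Each sh3 library was far above each empty-vector library, and the change was 7.17-fold (log2 change 2.84, SE 0.0982, Benjamini-Hochberg adjusted p = 3.82e-11 by edgeR's quasi-likelihood test). Arhgdib, which holds small GTPases in the cytosol, rose 5.47-fold from 3.53 ± 0.583 to 19.4 ± 0.795 CPM. The histone demethylase gene Kdm7a stood at 24.6, 25.9 and 26.6 CPM with the empty vector and 109.8, 106 and 107 CPM with sh3, 4.18-fold higher with no overlap between the groups. Hdac5, a class II histone deacetylase, rose 4.07-fold from 16.1 ± 0.409 to 65.6 ± 2.72 CPM. Lpin1, which makes diacylglycerol from phosphatidic acid, rose 5.1-fold from 6.13 ± 0.336 to 31.3 ± 1.23 CPM, and Pik3cd, the delta catalytic subunit of PI3-kinase, 4.44-fold from 3.03 ± 0.0699 to 13.5 ± 0.398 CPM. Others in this range were Nptx1, a secreted pentraxin, at 5.69 ± 0.717 to 30.4 ± 1.23 CPM, and Procr, the protein C receptor, at 12.4 ± 1.02 to 47.9 ± 1.73 CPM.

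Among genes chosen in the same way, the largest falls reached further, although over all tested genes rises of 8-fold or more were the more frequent. Syt13, an atypical synaptotagmin of vesicle traffic, was measured at 38.5, 39.4 and 36.3 CPM with the empty vector and 1.4, 1.82 and 2.2 CPM with sh3. That is a 21-fold fall, with a few percent of the empty-vector level left in every sh3 library. P2ry14, a receptor for UDP-sugars, fell 7.48-fold from 20.8 ± 1.66 to 2.78 ± 0.351 CPM, and Trp53i11 fell 7.08-fold from 16 ± 0.925 to 2.26 ± 0.221 CPM. Among abundant transcripts, the matrix proteoglycan gene Vcan (versican) stood at 955, 956 and 944 CPM with the empty vector and 296, 303 and 298 CPM with sh3. S100a4, a calcium-binding protein linked to cell motility, stood at 726, 751 and 725 CPM with the empty vector and 234, 234 and 229 CPM with sh3. Both genes were more than 3-fold lower in each sh3 library than in each empty-vector library. Regulators of transcription also fell by about this factor, among them Nfyc, a subunit of the CCAAT-binding factor NF-Y, from 36.2 ± 0.786 to 10.2 ± 1.04 CPM, Hexim1, an inhibitor of the elongation kinase P-TEFb, from 96.6 ± 2.82 to 32 ± 1.27 CPM, and Atf5 from 155 ± 5.72 to 51.8 ± 3.17 CPM.

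**Figure D2:**
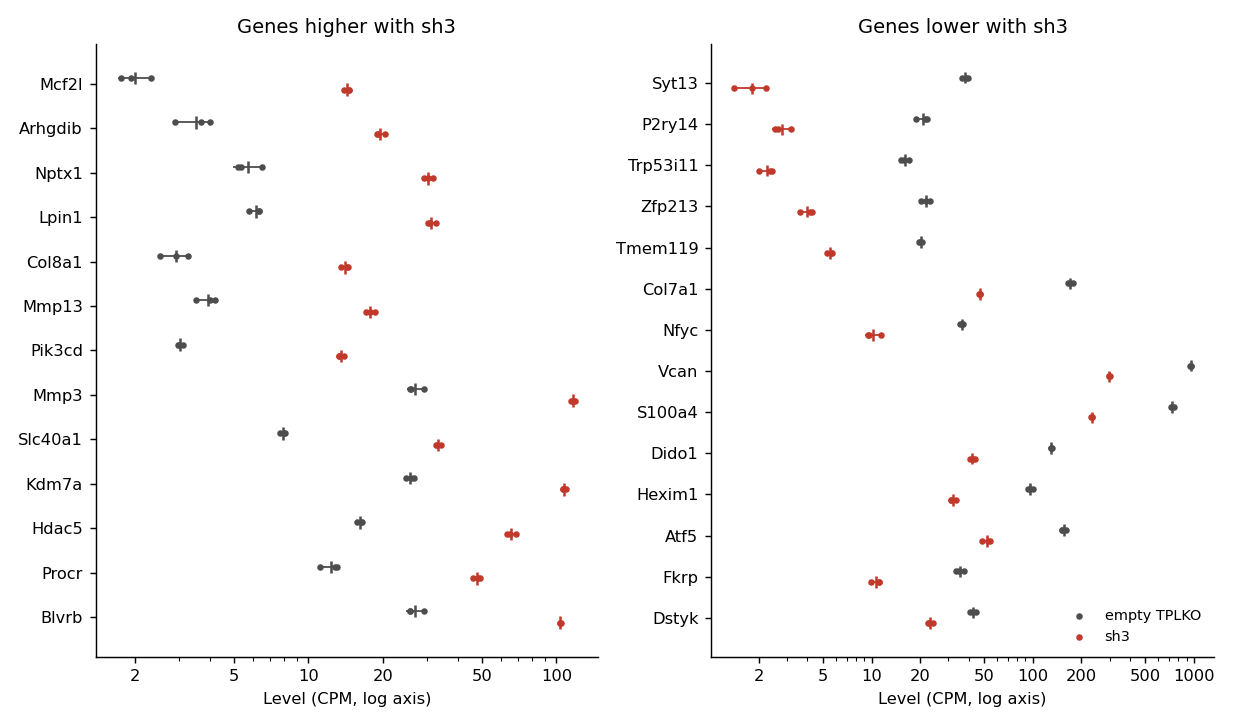
Level of 13 genes that rose and 14 that fell, Dstyk included, in CPM on a log axis: each point is a library, the tick is the group mean and the horizontal line is ± 1 SD (n = 3). The grey and red points do not overlap for any gene shown, which was a condition of the choice for all but Dstyk. Dstyk shows a smaller separation than the other genes of its panel.

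Regulators of splicing were lower almost as a class. Of 39 tested members of a list of SR proteins and hnRNPs, 4 were higher and 32 lower, with a median log2 change of -0.44 against 0.01 over all tested genes. Many of them lie above 64 CPM, where 1464 of 3919 tested genes were higher and 1978 lower, with a median of -0.06. The part of level in the counts of this list was not tested. SR proteins bind exonic enhancers and help the spliceosome choose splice sites, and hnRNPs often act against them. All 12 tested SR genes were called, 11 of them lower and 3 of them by at least 2-fold. Srsf1, the founding member, was measured at 258, 254 and 251 CPM with the empty vector and 94.7, 93.5 and 94.9 CPM with sh3. The groups did not overlap, and the fall was 2.7-fold (log2 change -1.43, SE 0.0187, Benjamini-Hochberg adjusted p = 1.68e-14 by edgeR's quasi-likelihood test). Srsf6 fell from 330.1 ± 4.42 to 146 ± 1.73 CPM, Srsf2 from 408 ± 7.53 to 196 ± 1.4 CPM and Srsf3 from 479.99 ± 10.3 to 253 ± 1.82 CPM. Srsf4 was the exception, rising from 57.8 ± 1.95 to 64.4 ± 1.39 CPM. Among the hnRNPs, Hnrnpm fell from 375 ± 4.62 to 172 ± 2.39 CPM, Hnrnpa2b1 from 1227 ± 11.9 to 619 ± 7.27 CPM, Hnrnpu from 387 ± 0.274 to 199.96 ± 3.23 CPM and Hnrnph1 from 569 ± 12 to 309.8 ± 5.37 CPM. Ptbp1, which represses many exons, fell from 656 ± 4.33 to 414 ± 1.3 CPM.

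Many SR genes carry exons or introns whose inclusion yields a transcript that is degraded or stays in the nucleus, and SR proteins are known to limit their own output through such unproductive transcripts. The share of each gene's counts in annotated nonsense-mediated decay and retained-intron transcripts was therefore taken per library. For Srsf3 this share was 63.1%, 62% and 63.9% with the empty vector and 87.7%, 87.1% and 84.6% with sh3. All other Srsf3 transcripts together went from 178 ± 7.34 to 34.2 ± 4.36 CPM, a larger difference than the gene total shows. For Tra2b, an SR-like protein, the share was 17.9%, 16.8% and 18.7% with the empty vector and 40.9%, 42.1% and 42.3% with sh3. For Srsf1 it was 9.35%, 10.6% and 9.93% with the empty vector and 22.9%, 21.7% and 22.4% with sh3. In these genes every sh3 library had a larger unproductive share than every empty-vector library. The share also went from 33.6% ± 1.51 to 60.5% ± 4.29 in Tra2a and from 22.5% ± 0.97 to 39.6% ± 1.6 in Srsf5. It went the other way in Srsf6, from 42.3% ± 1.54 to 37.3% ± 1.1, and in Srsf11, from 54.3% ± 1.77 to 44.1% ± 1.34.

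**Figure D3:**
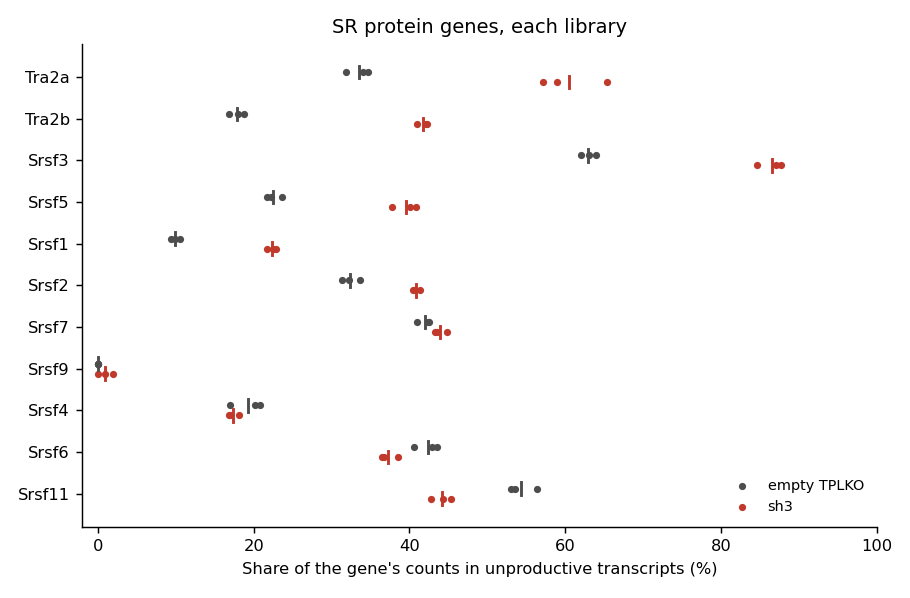
Share of each SR gene's estimated counts, in percent, that lies in transcripts annotated as nonsense-mediated decay or retained intron; points are single libraries and ticks are group means (n = 3). The red points (sh3) lie to the right of the grey points (empty TPLKO) for Tra2a, Tra2b, Srsf3, Srsf5, Srsf1 and Srsf2, and by less for Srsf7. They lie to the left for Srsf6 and Srsf11.

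Over the 11 SR genes with such a transcript, transcript usage was called in 10, against a background of 20.3% of the 9324 genes tested for usage. Among the 6919 tested genes with an unproductive transcript, it was called in 1484. The median difference in unproductive share was 8.43 percentage points for the SR genes, with 8 higher and 3 lower, against 0.248 points over all 6919. For the 21 hnRNP and other genes of the list with such a transcript it was 1.11 points, with 15 higher and 6 lower. Library-wide the shift was small: retained-intron transcripts held 3.51% ± 0.0381 of counts with the empty vector and 3.74% ± 0.0362 with sh3, and decay transcripts 3.48% ± 0.0215 and 3.57% ± 0.028. Transcript usage was tested per gene with edgeR at an adjusted p under 0.05, and the uncertainty with which the submitters' software shared reads among near-identical transcripts is not part of that test.

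Usage changed in 1895 genes, and in 834 of them a transcript's share moved by at least 10 points. The leading transcript differed between all libraries of the groups in 136 genes. For 264 of the 1895 genes the gene total was not called. The smallest adjusted p belonged to Srpk1, the kinase that phosphorylates SR proteins (adjusted p = 5.56e-33, edgeR's gene-level test of transcript usage with Benjamini-Hochberg adjustment). Most Srpk1 counts lay in the retained-intron Srpk1-212, at 44.6% ± 3.39 and 55.7% ± 1.55, and the decay transcript Srpk1-201, at 25.3% ± 1.03 and 27.5% ± 0.227. The coding Srpk1-204 held 17.7% ± 2.99 of the counts with the empty vector and 0.000717% ± 0.000654 with sh3. Another coding transcript, Srpk1-211, held 6.08% ± 0.162 and 7.91% ± 0.781. In Nasp, a histone chaperone gene, Nasp-203 led with the empty vector at 40.7% ± 1.04 and fell to 14.2% ± 1.3, and Nasp-201 led with sh3, at 56.9% ± 1.6 against 22.5% ± 0.419. In Cyb5r1, an NADH-dependent reductase gene, the coding Cyb5r1-201 went from 59.7% ± 0.993 to 16.1% ± 1.95 and the decay transcript Cyb5r1-205 from 22.1% ± 0.69 to 64.1% ± 1.87. In Eif4a2, an RNA helicase gene of translation, the coding Eif4a2-202 went from 46.1% ± 2.34 to 24.0% ± 2.02, and another coding transcript, Eif4a2-203, was listed at 0 in every empty-vector library and held 18.9% ± 0.792 with sh3. Of its decay transcripts, Eif4a2-210 went from 13.3% ± 1.23 to 29.7% ± 0.558 and Eif4a2-204 from 21.7% ± 2.39 to 18.3% ± 2.31. In Tra2b the coding Tra2b-201 went from 35.2% ± 1.52 to 15.4% ± 0.461, the coding Tra2b-204 from 46.7% ± 0.768 to 42.5% ± 0.459 and the decay transcript Tra2b-206 from 14.5% ± 1.14 to 36.7% ± 0.878. Cdk2, chosen here after its values were seen, was not called for its total, at 98.4 ± 1.3 to 100.4 ± 0.501 CPM, while Cdk2-201 went from 57.1% ± 3.18 to 18.9% ± 2.44 and Cdk2-202 from 28.8% ± 3.29 to 63.4% ± 1.23 of its counts.

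The DNA replication machinery was lower as a class, by modest factors. Of 65 tested genes for origin licensing, polymerases, nucleotide supply and repair, 51 were lower and 8 higher, with a median log2 change of -0.27. Here too the part of level was not tested. Licensing loads the MCM helicase on origins in G1 phase, and the polymerases and the sliding clamp then copy the DNA in S phase. Several promoters of this group carry matches to the E2F site, through which E2F factors drive S-phase genes. The 250 bases before the start of 3 members that fell are given here, from RefSeq (GRCm38.p6), as the strand of the gene reads, with matches to TTGGCGC, to the related TTCCCGC and to the related TTCGCGC on either strand in capitals. Mcm5, a helicase subunit, lies at chr8:75109259-75109508 on the plus strand and has 3 matches, of which a pair overlap. Mcm7, its partner, lies at chr5:138171884-138172133 on the minus strand. It has 2 promoters listed, and the one shown is the farthest upstream of those with a match. Brca2, which acts in the repair of broken DNA, lies at chr5:150522371-150522620 on the plus strand.
Mcm5: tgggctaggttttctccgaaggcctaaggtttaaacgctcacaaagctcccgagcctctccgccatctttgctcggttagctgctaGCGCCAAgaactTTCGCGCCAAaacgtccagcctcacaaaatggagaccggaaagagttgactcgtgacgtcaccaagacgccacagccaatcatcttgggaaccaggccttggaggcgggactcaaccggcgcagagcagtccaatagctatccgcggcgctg
Mcm7: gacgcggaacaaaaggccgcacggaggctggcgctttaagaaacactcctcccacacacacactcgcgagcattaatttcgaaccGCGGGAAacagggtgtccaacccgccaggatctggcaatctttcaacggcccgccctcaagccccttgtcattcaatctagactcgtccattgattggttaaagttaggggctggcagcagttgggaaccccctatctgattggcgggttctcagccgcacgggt
Brca2: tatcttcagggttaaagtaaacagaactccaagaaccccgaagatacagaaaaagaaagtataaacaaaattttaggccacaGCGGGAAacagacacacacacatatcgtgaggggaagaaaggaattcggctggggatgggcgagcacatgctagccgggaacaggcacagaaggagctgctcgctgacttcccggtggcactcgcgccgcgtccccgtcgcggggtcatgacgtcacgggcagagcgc

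Such a match was present before the start of 18 of 51 tested replication genes with a listed promoter (35.3%), of 13.8% of all 10018 tested genes with a promoter, and of 6.69% of the 32851 promoters listed. A match describes the letters only. Mcm5, with its 3 matches, fell from 310.3 ± 2.17 to 154 ± 5.05 CPM, and Mcm7 from 302 ± 0.791 to 167 ± 1.81 CPM. Brca2 was measured at 54, 54.4 and 53.2 CPM with the empty vector and 21.9, 21.1 and 21.6 CPM with sh3. All sh3 libraries lay below all empty-vector libraries, 2.5-fold on the fitted scale. Tyms, which makes thymidylate, was at 86.7, 81.2 and 81.9 CPM with the empty vector and 35, 32.9 and 34.6 CPM with sh3, a 2.44-fold fall. Further falls were those of the flap nuclease Fen1, from 135 ± 3.82 to 68.1 ± 0.982 CPM, the clamp Pcna, from 374 ± 3.85 to 269 ± 4.74 CPM, and the ribonucleotide reductase subunit Rrm2, from 252 ± 1.2 to 156 ± 3.41 CPM. Cdc6, which loads the helicase, fell from 71.7 ± 0.738 to 49.2 ± 1.75 CPM and the checkpoint kinase Chek1 from 52.6 ± 2.42 to 31.9 ± 0.921 CPM. Against this direction, Orc4, an origin recognition subunit, rose from 60.3 ± 1.41 to 96.4 ± 2.25 CPM, and Rrm2b, the reductase subunit used outside S phase, rose from 27.2 ± 0.793 to 44 ± 0.448 CPM.

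Regulators of G1 split, with 18 of 32 tested members higher and 13 lower. Of 9 cyclins and kinases 3 were higher and 5 lower, and of 16 E2F and MYC factors 10 were higher and 6 lower. Of 7 tested inhibitors and RB family members 5 were higher and 2 lower. Among the drivers of the G1 to S transition, cyclin gene Ccnd2 fell from 732 ± 4.4 to 436 ± 4.15 CPM, its partner Cdk4 from 443 ± 6.86 to 330.4 ± 3.46 CPM and E2f2 from 44.4 ± 1.38 to 26.6 ± 1.12 CPM. Among the brakes, Cdkn1b rose from 47.2 ± 1.81 to 73.3 ± 1.18 CPM, Rb1 from 16.4 ± 1.45 to 24.5 ± 0.636 CPM and the MYC antagonist Mxi1 from 51.1 ± 1.74 to 96.5 ± 1.39 CPM, whereas the RB relative Rbl1 fell from 95.6 ± 0.327 to 52.5 ± 1.74 CPM. Myc itself rose from 528 ± 11.2 to 752 ± 13.3 CPM. Of 16 writers and readers of DNA methylation and polycomb marks, 5 were higher and 8 lower. The maintenance methyltransferase Dnmt1 fell from 486 ± 3.65 to 329 ± 2.96 CPM and its recruiter Uhrf1 from 332 ± 2.64 to 211 ± 4.51 CPM. The polycomb methyltransferases moved apart, Ezh2 falling from 117 ± 3.61 to 82.2 ± 0.762 CPM and Ezh1 rising from 26.5 ± 0.217 to 51.5 ± 1.52 CPM.

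Machinery for making and degrading proteins was also mostly lower. Among all tested genes above 64 CPM, lower calls also outnumbered higher ones, at 1978 against 1464 of 3919. The part of level in the counts of these groups was not tested. In ribosome biogenesis, 24 of 29 tested genes were lower and 4 higher, with a median of -0.33. Ubtf, which starts transcription of ribosomal RNA genes, fell from 322 ± 5.57 to 188 ± 1.91 CPM, Bop1, which matures the large subunit, from 153 ± 1.51 to 94.4 ± 1.34 CPM, and the nucleolar protein genes Npm1 and Ncl from 1763 ± 15.4 to 1319.6 ± 5.42 CPM and from 1985 ± 17.7 to 1447 ± 5.79 CPM. Npm3, a relative of Npm1, rose from 82.4 ± 2.65 to 114 ± 2.86 CPM. Of 34 proteasome subunits 24 were lower and 5 higher (3 higher without empty-vector replicate 2 or without sh3 replicate 2), with Psmc4 going from 133 ± 2.41 to 81.7 ± 2.03 CPM. Of 78 mitochondrial ribosomal proteins 46 were lower and 10 higher, Mrpl20 from 61.9 ± 0.921 to 31.8 ± 0.848 CPM and Mrps10 in the other direction from 23.1 ± 0.266 to 39.5 ± 1.49 CPM. Of 37 aminoacyl-tRNA synthetases 23 were lower and 7 higher. The median log2 changes of the last 3 groups were -0.19, -0.17 and -0.12.

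Nutrient sensing and uptake followed a mixed course, and the part of level in these counts was not tested either. In the mTOR list, 27 of 49 tested genes were lower and 15 higher. Mlst8, a core subunit of both mTOR complexes, fell from 56.5 ± 0.707 to 26.3 ± 1.53 CPM, and Rps6kb1, the S6 kinase downstream, fell from 129 ± 2.67 to 82.6 ± 2.22 CPM. Of 21 amino acid transporters, 12 were lower, among them Slc7a1, which carries cationic amino acids, from 581 ± 7.92 to 336 ± 3.28 CPM, and Slc7a5, which carries large neutral ones, from 948 ± 9.68 to 667 ± 2.71 CPM. Slc7a11, the cystine importer, was among the 7 that rose, from 216 ± 3.58 to 324 ± 0.421 CPM. Of 21 tested heat shock genes 10 were higher and 8 lower. The cytosolic chaperone genes Hspa8 and Hsp90ab1 fell from 3103 ± 27.4 to 1835 ± 7.55 CPM and from 4883 ± 24.5 to 3723 ± 23.1 CPM, and Hspe1, the mitochondrial co-chaperonin, rose from 145 ± 3.88 to 173 ± 6.49 CPM.

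Circadian clock genes moved the other way. Of 15 tested members 12 were higher, 6 of them by at least 2-fold, and 1 was lower, and the median log2 change was 0.67. In the clock, CLOCK and BMAL (encoded by Arntl) activate Per, Cry, Nr1d1, Dbp and Tef through E-boxes, and PER and CRY proteins in turn repress CLOCK and BMAL. The 250 bases before the start of Per1, at chr11:69098699-69098948 on the plus strand, and of Tef, at chr15:81802423-81802672 on the plus strand, are shown from RefSeq (GRCm38.p6) because both rose and hold the E-box CACGTG, which is in capitals and reads the same on both strands. RefSeq lists 2 promoters for each, and the one shown is the farthest upstream of those that hold this E-box.
Per1: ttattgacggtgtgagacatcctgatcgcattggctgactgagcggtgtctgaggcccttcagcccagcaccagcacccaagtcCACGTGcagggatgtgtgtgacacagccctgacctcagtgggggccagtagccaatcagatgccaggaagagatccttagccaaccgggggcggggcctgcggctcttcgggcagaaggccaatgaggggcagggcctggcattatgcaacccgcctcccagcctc
Tef: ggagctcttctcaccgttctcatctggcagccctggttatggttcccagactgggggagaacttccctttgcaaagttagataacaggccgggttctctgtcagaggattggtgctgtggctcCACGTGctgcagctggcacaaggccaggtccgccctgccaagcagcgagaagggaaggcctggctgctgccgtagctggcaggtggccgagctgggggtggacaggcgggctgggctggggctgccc

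This E-box was present before the start of 5 of 13 tested clock genes with a listed promoter (38.5%), of 9.60% of all tested genes with a promoter, and of 6.02% of the 32851 promoters listed, and it again describes letters and not binding. Per1 was at 27.3, 28.2 and 27.8 CPM with the empty vector and 58.9, 59.4 and 57.9 CPM with sh3. Tef, a PAR bZIP activator, was at 16.1, 14 and 17.1 CPM with the empty vector and 55, 55.7 and 55.6 CPM with sh3. Per2 was at 3.43, 3.52 and 3.94 CPM with the empty vector and 14.2, 13.6 and 13.7 CPM with sh3. In these genes the sh3 libraries lay close together at about 2 to 4 times the empty-vector level. Per3 rose 4.6-fold from 1.91 ± 0.0578 to 8.82 ± 0.842 CPM, Dbp 3.72-fold from 1.8 ± 0.082 to 6.69 ± 0.674 CPM and the repressor Nr1d1 2.67-fold from 7.68 ± 0.828 to 20.5 ± 0.511 CPM. The smaller rises of Cry1 and Cry2 ran from 29.8 ± 0.408 to 50.4 ± 1.57 CPM and from 40.4 ± 2.43 to 64.1 ± 0.656 CPM. Arntl, the activator, was the member that fell, at 25.5, 24.5 and 26.2 CPM with the empty vector and 13.3, 13.9 and 15.1 CPM with sh3. Clock, its partner, was not called, at 57.3 ± 2.06 to 57.6 ± 1.45 CPM (log2 change 0.01, SE 0.034). The labels state no time of day for the libraries.

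**Figure D4:**
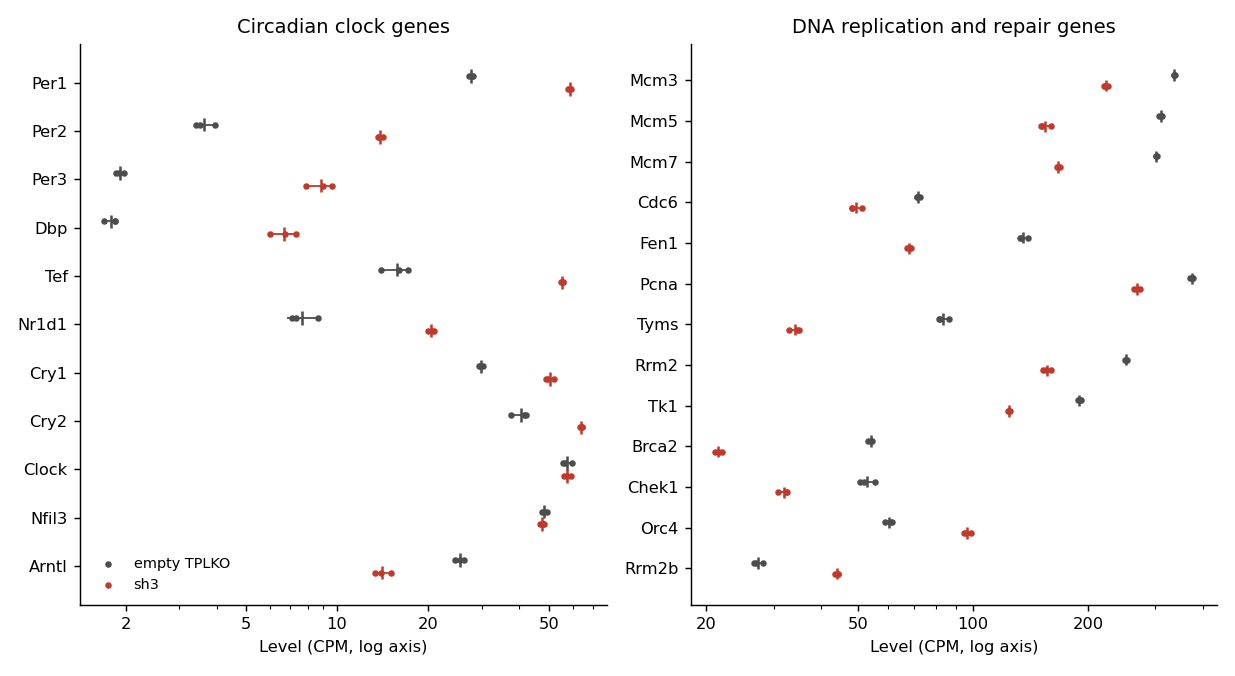
Level of clock genes (left) and of replication and repair genes (right) in CPM on a log axis; points are single libraries, ticks are means and horizontal lines ± 1 SD (n = 3). Apart from Arntl, Clock and Nfil3, the clock genes shown are higher with sh3, and apart from Orc4 and Rrm2b the replication genes shown are lower.

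Genes of the extracellular matrix and its receptors held many of the larger changes. Laminins, the cross-shaped trimers of basement membranes, and their partners were higher in 10 of 12 tested cases and lower in 1, with a median of 0.63. Lamc1, the gamma chain of most laminins, was measured at 355, 363 and 350.4 CPM with the empty vector and 876, 864 and 854 CPM with sh3. The groups were clearly apart, at 2.43-fold. Lama5 rose from 598 ± 14.4 to 1118 ± 2.84 CPM and the heparan sulfate proteoglycan gene Agrn from 156 ± 4.45 to 313 ± 5.58 CPM. Of 16 integrin subunits, which bind these proteins at the cell surface, 10 were higher and 4 lower: Itga2 rose from 2.71 ± 0.0737 to 11 ± 0.333 CPM and the laminin receptor subunit Itga7 from 14.2 ± 0.771 to 50.4 ± 2.32 CPM, while Itgb3 fell from 14.9 ± 0.602 to 8.22 ± 0.608 CPM.

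Of 29 proteases that cut matrix and their inhibitors, 17 were higher, 10 of them by at least 2-fold, and 5 lower. Mmp3, stromelysin, was at 29.1, 26 and 25.6 CPM with the empty vector and 119, 117 and 114 CPM with sh3. Each sh3 library held about 4 times the empty-vector level. The collagenase Mmp13 rose from 3.92 ± 0.361 to 17.8 ± 0.712 CPM and the gelatinase Mmp9 from 1.57 ± 0.411 to 8.38 ± 0.361 CPM. Mmp14, the membrane-bound collagenase, fell from 289 ± 2.91 to 226 ± 3.24 CPM. In the plasminogen system, the activator inhibitor Serpinb2 rose from 0.292 ± 0.0993 to 5.18 ± 0.347 CPM. Of 35 collagen chains and modifying enzymes, 19 were higher and 8 lower. Col8a1 rose from 2.91 ± 0.377 to 14.1 ± 0.45 CPM and the prolyl hydroxylase subunit P4ha1 from 105 ± 2.59 to 228 ± 1.83 CPM. Col7a1, which forms anchoring fibrils, fell from 171 ± 5.48 to 47 ± 0.508 CPM and the crosslinker Loxl2 from 94 ± 0.639 to 43.2 ± 0.851 CPM.

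Semaphorins and plexins, guidance cues and their receptors, were higher in 18 of 27 tested cases, 8 by at least 2-fold, and lower in 5, with a median of 0.54. Sema4g rose from 1.03 ± 0.214 to 6.69 ± 0.721 CPM, Sema6d from 6.25 ± 0.391 to 20.5 ± 0.59 CPM and the receptor gene Plxnc1 from 0.495 ± 0.129 to 2.29 ± 0.292 CPM, and Sema3c fell from 23.7 ± 0.743 to 9.8 ± 0.248 CPM. Transcripts of factors tied to epithelial-mesenchymal transition were higher in 6 of 8 cases and not called in 2, and Twist1 rose from 17.6 ± 0.514 to 34.2 ± 1.81 CPM and Snai1 from 6.74 ± 0.314 to 10.9 ± 0.165 CPM. The junction scaffold Tjp1 fell from 398 ± 2.91 to 158 ± 2.22 CPM. The actin crosslinker Flna fell from 2001 ± 31 to 1208 ± 19.8 CPM while Vcl, vinculin of focal adhesions, rose from 210.1 ± 1.75 to 349 ± 3.18 CPM.

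In the Notch pathway, 9 of 14 tested genes were higher, 6 by at least 2-fold, and 4 lower, 3 by at least 2-fold. All 4 tested ligands were higher, Dll1 from 3.67 ± 0.698 to 8.81 ± 0.57 CPM, Jag1 from 3.56 ± 0.308 to 6.94 ± 0.831 CPM and Jag2 from 1.78 ± 0.473 to 5.23 ± 0.212 CPM, and Dll4, with very few counts, from 0.0152 ± 0.0132 to 0.636 ± 0.0384 CPM. A ligand on a neighbouring cell triggers cleavage of the receptor, whose intracellular part then turns on Hes and Hey genes. The receptor gene Notch2 fell from 228 ± 2.95 to 93.7 ± 1.94 CPM and Notch3 rose from 1.34 ± 0.333 to 4.47 ± 0.133 CPM. The target gene Hes1, a transcriptional repressor, was at 7.86, 7.02 and 6.58 CPM with the empty vector and 1.34, 1.26 and 0.90 CPM with sh3. Every sh3 library was below every empty-vector library, and the fall was 6.11-fold. Nrarp, a feedback inhibitor that Notch induces, fell from 3.01 ± 0.178 to 0.748 ± 0.132 CPM.

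TGF-beta and BMP genes divided by role. Secreted antagonists, which trap the ligands, were higher in 7 of 9 cases and not called in 2: Fstl3 rose from 7.92 ± 0.466 to 22.5 ± 0.645 CPM and Grem1 from 19.98 ± 0.726 to 46.7 ± 1.17 CPM. Of 12 SMADs and targets 3 were higher and 8 lower. The BMP targets Id1, Id2 and Id3, inhibitors of differentiation factors, fell from 13.7 ± 0.505 to 5.8 ± 0.475 CPM, from 2.69 ± 0.213 to 0.977 ± 0.265 CPM and from 22.7 ± 0.671 to 10.8 ± 0.213 CPM. Among ligands, Tgfb1 rose from 31.4 ± 2.9 to 58.5 ± 3.8 CPM and Gdf15 from 0.435 ± 0.116 to 3.07 ± 0.749 CPM. In the Wnt list 13 of 35 were higher and 11 lower, close to the background shares. There the transcriptional effector Ctnnb1, beta-catenin, fell from 675 ± 6.79 to 318 ± 2.57 CPM, the ligand Wnt7b from 94.4 ± 2.94 to 54.7 ± 1.53 CPM, and the receptor gene Fzd5 and the inhibitor gene Dkk2 rose from 6.63 ± 0.676 to 18.8 ± 0.0267 CPM and from 11.9 ± 0.587 to 32.9 ± 0.792 CPM.

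**Figure D5:**
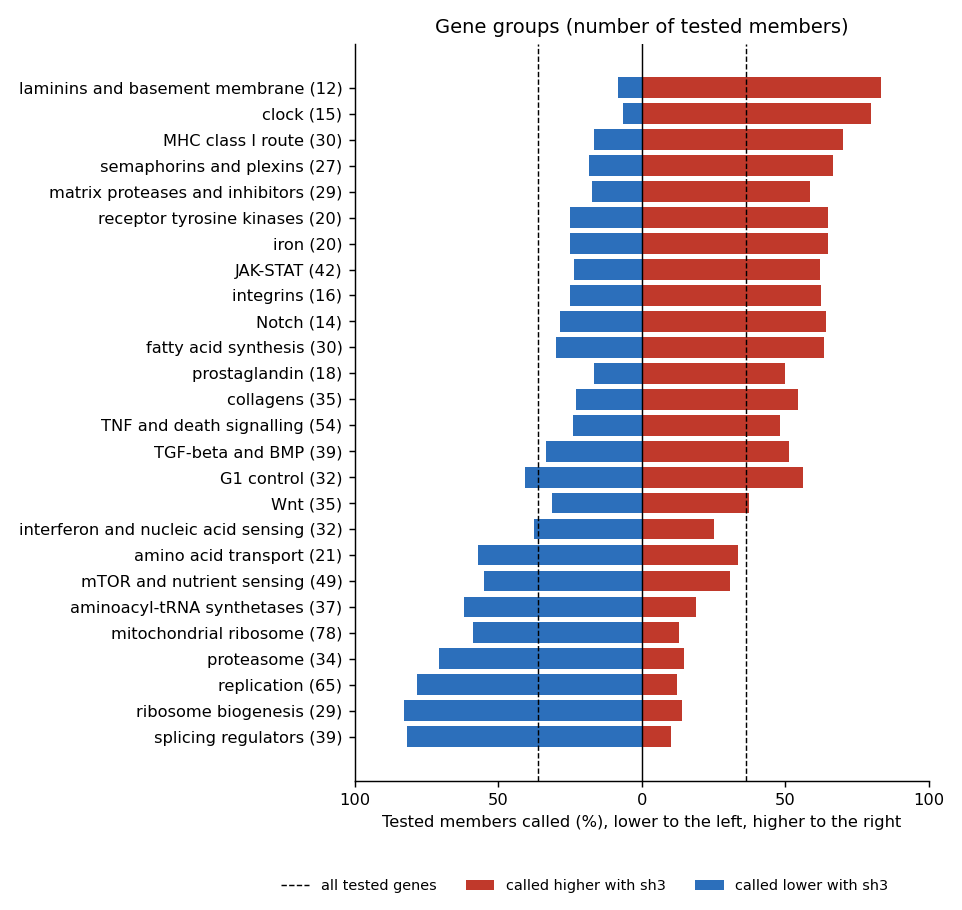
Share of each group's tested members that were called higher with sh3 (red, right) or lower (blue, left), in percent, with the number of tested members in parentheses and dashed lines at the shares of all tested genes (36.2% and 36.4%). Clock, laminin and MHC class I genes extend furthest to the right, splicing, ribosome biogenesis and replication genes furthest to the left, and Wnt genes lie near the dashed lines.

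Among signalling genes, the route to prostaglandins and their receptors had 9 of 18 tested members higher, 5 by at least 2-fold, and 3 lower. Pla2g4a, the phospholipase that frees arachidonic acid, was measured at 214, 209.9 and 203 CPM with the empty vector and 499, 498 and 501 CPM with sh3. Its sh3 libraries differed from each other by a few CPM and lay 2.39-fold above the empty-vector libraries. Ptgs1, the constitutive cyclooxygenase, rose from 418 ± 0.387 to 479.6 ± 2.3 CPM. Of the 4 tested terminal synthases, which turn the common intermediate into single prostaglandins, 1 was lower and 3 were not called. Among receptors, Ptgir, which binds prostacyclin, was at 0.285, 0.32 and 0.189 CPM with the empty vector and 8.77, 9.01 and 8.77 CPM with sh3. It was close to 0 in the empty-vector libraries. Ptger2, a receptor for prostaglandin E, had no count in any empty-vector library and 12, 12 and 11 estimated counts in the sh3 libraries. Its sh3 mean was 10.96 times a floor of 3 counts over the empty-vector group.

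EGF-family ligands were higher in 5 of 9 tested cases and lower in 1. Hbegf, heparin-binding EGF, was at 17.3, 15.9 and 17.6 CPM with the empty vector and 58.4, 57.6 and 58.9 CPM with sh3. The groups were far apart. Areg rose from 50.6 ± 0.378 to 91.2 ± 3.29 CPM and Ereg from 36.8 ± 1.69 to 65.5 ± 2.61 CPM. Genes of the ERBB receptor family moved apart: Erbb2 fell from 35.9 ± 3.32 to 24.1 ± 1.63 CPM and Erbb3, at a low level, rose from 0.387 ± 0.0582 to 1.73 ± 0.0825 CPM. Of 9 tested AP-1 genes, which encode dimeric factors induced by growth factors and stress, 9 were higher and 4 by at least 2-fold, with a median of 0.71. Fosb rose from 0.282 ± 0.0394 to 1.72 ± 0.175 CPM, Atf3 from 21.7 ± 1.74 to 54.6 ± 0.0847 CPM, Maff from 9.89 ± 0.32 to 22.3 ± 0.733 CPM and Jun from 39.1 ± 1.29 to 64.2 ± 0.512 CPM. Of 14 tested immediate-early genes outside AP-1, 5 were higher, 3 lower and 6 not called. Egr1, among those not called, was at 1.2 ± 0.235 to 0.827 ± 0.103 CPM (log2 change -0.54, SE 0.258). It passed the test as lower without empty-vector replicate 3 (log2 change -0.69, adjusted p = 0.0401, edgeR). Of 20 receptor tyrosine kinase genes 13 were higher and 5 lower, Mertk rising from 0.954 ± 0.276 to 5.04 ± 0.179 CPM and Pdgfra from 13.2 ± 1.1 to 26.6 ± 0.151 CPM.

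In the JAK-STAT list, 26 of 42 tested genes were higher and 10 lower. The transcription factor Stat2 rose from 11 ± 0.412 to 27.5 ± 1.16 CPM and the receptor subunit Il13ra1 from 7.72 ± 0.40 to 21.4 ± 1.07 CPM, whereas Stat6 fell from 154 ± 2.9 to 100.2 ± 3.17 CPM and the receptor Il6ra from 41.1 ± 2.18 to 15.4 ± 0.619 CPM. Chemokines went both ways: the monocyte attractants Ccl2 and Ccl7 fell from 99.6 ± 1.52 to 49.5 ± 2.03 CPM and from 17 ± 0.811 to 7.66 ± 0.484 CPM, and Ccl9 rose from 1.22 ± 0.243 to 4.7 ± 0.406 CPM. Of 32 interferon and nucleic acid sensing genes 8 were higher and 12 lower, so the share higher was below the background and the share lower close to it. Irf5 rose from 0.693 ± 0.235 to 6.31 ± 0.298 CPM and Gbp2 fell from 2.13 ± 0.163 to 0.457 ± 0.198 CPM. MHC class I genes were higher in 21 of 30 cases and lower in 5, and the peptide transporter Tap1 rose from 4.0 ± 0.193 to 13.9 ± 1.05 CPM. Checkpoint and natural killer ligand genes were higher in 9 of 18 tested cases and lower in 8. Cd274, which encodes a checkpoint ligand for T cells, rose from 4.21 ± 0.269 to 13.9 ± 0.816 CPM, and Nt5e, the surface enzyme that makes adenosine, rose from 7.72 ± 0.778 to 28.1 ± 1.77 CPM. Cd80, a costimulatory ligand, fell from 1.99 ± 0.199 to 0.565 ± 0.126 CPM, and Serpinb9, which inhibits granzyme B, fell from 93.7 ± 2.86 to 54.7 ± 0.459 CPM.

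Genes of cell death did not move as a block. In the TNF and death signalling list 26 of 54 were higher and 13 lower, and among 13 tested caspase and necroptosis genes 7 were higher and 6 not called. The adaptor Fadd, which links death receptors to caspases, fell from 13.1 ± 0.533 to 5.35 ± 0.776 CPM, and the ubiquitin ligase Traf6 fell from 68.6 ± 1.01 to 37 ± 2.6 CPM. In the BCL2 family 9 of 15 were higher and 5 lower. Of 4 tested guardians 3 were higher and 1 lower, and of 3 effectors 1 was higher and 2 lower. Of 8 tested killers of the BH3-only type 5 were higher and 2 lower. The killers Bbc3 and Bcl2l11, which bind and block the guardians, rose from 7.5 ± 0.353 to 17.5 ± 1.34 CPM and from 27.1 ± 0.886 to 57.4 ± 0.547 CPM.

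In lipid metabolism the counts differed between synthesis and oxidation. Of 30 genes of fatty acid synthesis and storage 19 were higher and 9 lower. The desaturases Scd1 and Scd2 rose from 125 ± 4.04 to 276 ± 3.01 CPM and from 518 ± 9.22 to 919.5 ± 7.95 CPM, and Acss2, which makes acetyl-CoA from acetate, rose from 3.38 ± 0.108 to 8.76 ± 0.429 CPM. Fasn, the synthase itself, fell from 577 ± 7.61 to 375 ± 4.21 CPM. Of 14 oxidation enzymes 9 were lower and 3 higher, with Acaa2 falling from 37.8 ± 1.17 to 17.8 ± 0.977 CPM and Hadha from 112 ± 3.2 to 72.2 ± 1.51 CPM. These enzymes are part of a wider list of fatty acid use. In that list 12 of 37 tested genes were higher and 18 lower, with a median of -0.01. Slc25a20, which carries acylcarnitines into mitochondria, fell from 23.4 ± 1.18 to 11.7 ± 0.826 CPM. Plin2, which coats lipid droplets, was at 172, 169.8 and 173 CPM with the empty vector and 71.3, 72.4 and 68.9 CPM with sh3, and its groups did not overlap. Pdk1, which shuts pyruvate dehydrogenase, rose from 39.5 ± 1.33 to 86.6 ± 1.12 CPM.

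Iron genes were higher in 13 of 20 cases and lower in 5. Slc40a1, ferroportin, the only known iron exporter of mammalian cells, was at 7.66, 7.94 and 8.07 CPM with the empty vector and 32.8, 33.1 and 34.1 CPM with sh3. It was about 4 times higher in each sh3 library. The storage chains Fth1 and Ftl1 rose from 1059 ± 27.5 to 1766 ± 49.6 CPM and from 1716 ± 16.6 to 2499 ± 37.8 CPM, Lcn2, which binds iron-loaded siderophores, from 2.6 ± 0.214 to 8.69 ± 0.598 CPM, and the mitochondrial importer Slc25a37 from 169 ± 0.973 to 344 ± 1.38 CPM. The transferrin receptor Tfrc, the main uptake route, was nearly level, at 140.4 ± 2.82 to 147 ± 0.912 CPM, and its call was lost without empty-vector replicate 3 (log2 change 0.04, adjusted p = 0.0761, edgeR). Blvrb, which reduces the heme product biliverdin, rose from 26.9 ± 2.04 to 104 ± 0.648 CPM.

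A few families and single loci stood out by other patterns. All 4 NDRG genes were higher, with Ndrg4 rising from 2.29 ± 0.362 to 11 ± 0.935 CPM, Ndrg1 from 227 ± 2.69 to 407 ± 1.49 CPM and Ndrg3 by less, from 49.9 ± 0.245 to 55.9 ± 0.59 CPM. Of 8 tested Ly6 genes, small lipid-anchored surface proteins in a cluster of close copies, 7 were higher, and their reads may be shared among copies. Ly6a rose from 174 ± 6.02 to 314 ± 4.88 CPM and Ly6c1 from 135 ± 2.09 to 265 ± 3.43 CPM, and Ly6e was not called, at 992 ± 6.25 to 979 ± 10.8 CPM. At 3 loci a group held at most 3 counts in all while every library of the other group held at least 1 CPM. The processed pseudogene AC124513.1 on chromosome 19 had no count in the empty-vector libraries and 370, 619 and 255 estimated counts with sh3. Its sh3 mean was 387 times a floor of 3 counts over the empty-vector group. Akp-ps1, an alkaline phosphatase pseudogene on chromosome 1, had no count against 65, 54 and 62, and its sh3 mean was 56.8 times that floor. Gm10401 on chromosome 5 went the other way, with 59, 73 and 116 estimated counts against 1, 0 and 0. Counts at these loci are estimates, and reads of pseudogenes may be shared with near-identical copies. The part of that read assignment in the counts of 0 was not tested.

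The markers tell what kind of cells these libraries hold. Of 11 alveolar and club cell markers 4 had enough counts to test. The defining alveolar and club genes Sftpc, Sftpa1, Sftpd and Scgb1a1 had no count in any of the 6 libraries, and Nkx2-1, the lineage factor of lung adenocarcinoma, had 5 in all. Hopx, expressed in alveolar type I cells and elsewhere, rose from 1.78 ± 0.315 to 10.6 ± 0.476 CPM. The 11 markers summed to 5.42 to 7.05 CPM with the empty vector and 14 to 15.5 CPM with sh3. The 8 epithelial markers summed to 34.5 to 38.7 CPM and 35.4 to 37.1 CPM, and 4 had enough counts to test. Krt18, a keratin of simple epithelia, made up most of that sum and was not called, at 34 ± 2.31 to 34.8 ± 1.03 CPM, and Krt8, its usual partner, fell from 0.603 ± 0.139 to 0.0664 ± 0.039 CPM. The adhesion genes Epcam and Cdh1 had 2 and 11 counts over the 6 libraries. All 9 mesenchymal markers had enough counts to test, with 5 higher, 3 lower and 1 not called, and a median log2 change of 0.14. Vim stood at 976, 969 and 1014 CPM with the empty vector and 906, 936 and 946 CPM with sh3. So the labelled lung adenocarcinoma origin is not visible in its defining markers, with either vector. The summed level of the mesenchymal markers was 2818 to 2855 CPM with the empty vector and 2817 to 2841 CPM with sh3.

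Leukocyte, squamous and endothelial markers were at or near 0. The 7 leukocyte markers summed to 0.307 to 0.370 CPM with the empty vector and 0.241 to 0.343 CPM with sh3, and Adgre1 had no count. The 5 squamous markers summed to at most 0.176 CPM in any library, with Krt5 and Sox2 at no count, and the 4 endothelial markers to at most 1.09 CPM. The 6 fibroblast markers summed to 37.2 to 40.2 CPM with the empty vector and 55.6 to 56.8 CPM with sh3, with 3 members higher and 2 lower; their part in the matrix results was not tested.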

How the data were processed

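RNA of 3 LLC libraries per group was sequenced from a stranded mRNA kit with reads of 75 bases, per the labels' protocols. Estimated counts per transcript were made with kallisto, and sleuth and build mm10 are also named, per the submitters' processing notes, with versions and annotation not given in the sources used here. Effective transcript lengths come from the deposited table and served only for TPM. Of 118489 transcripts, 116816 matched GENCODE M21 and gave 36047 genes, and the 1673 without a match (0.547% to 0.593% of counts) were left out. Counts were summed per gene, rounded, filtered with edgeR's filterByExpr (minimum count 10, total 15) and scaled by TMM. The main test was edgeR 4.0.16 (R 4.3.3), the quasi-likelihood test with the 6 LLC libraries and no covariate. Transcript usage was tested with diffSpliceDGE of edgeR, which compares each transcript's change with that of its gene. Scripts were tested on simulated data.

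The members and the 53 gene lists were chosen with earlier results of these data known. The genes named are Dstyk, the 40 largest rises and 40 largest falls, and loci with at most 3 counts in a group. Leading members of the lists, members that complete a role and the 10 smallest p for usage are also named. The largest rises and falls were taken among called genes above a mean log2 CPM of 3 whose libraries did not overlap between the groups. Others are named as chosen after their values were seen. A few genes that fall under this rule are not reported here. Reads of near-identical copies (pseudogenes, Ly6, MHC and mitochondrial genes) may be shared among them. Alternatives were DESeq2 1.42.0, limma 3.58.1 on log2(TPM + 1), other scalings and filters, a replicate block and leaving out each library. Correlations of the deviations of same-numbered libraries were -0.01, 0.10 and -0.01, so the numbers were not taken to pair the libraries. Promoters came from RefSeq (GRCm38.p6), cut to the 250 bases before the start.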

Additional observations from a re-analysis of the deposited data

How the results depend on the processing

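The comparison used edgeR on estimated counts, and 13 other settings, besides a test against a minimum fold, were run on the genes. Testing against a fold of 1.2 (glmTreat) left 5918 called genes, 3067 higher and 2851 lower. With limma on log2(TPM + 1), which shrinks the changes of low genes, 446 genes were at least 2-fold higher and 220 at least 2-fold lower, and with a filter of 1 CPM in 3 libraries, which tests fewer low genes, 380 were at least 2-fold lower. Leaving out each library in turn gave 9644 to 9848 called genes, 4728 to 4854 higher and 4864 to 4994 lower, 1092 to 1183 at least 2-fold higher and 574 to 616 at least 2-fold lower, 1129 to 1138 called list members, a Dstyk log2 change of -0.93 to -0.86, and 1511 to 1756 genes called for usage. With replicate number as a block, 9925 genes were called (4934 higher, 4991 lower), with 1103 and 578 at least 2-fold higher and lower, 1154 list members, a Dstyk change of -0.89 and 1385 genes called for usage; no call of a named gene changed with the block. Requiring 10% of a gene per transcript gave 1660 genes for usage. Scaling by library size alone shifted the median log2 change by 0.03 and made 52.65% of the calls higher, against 49.86%, and Cdk2 then passed the test (log2 change 0.06). Of 106 counts of list members, 101 stayed within 1.5 times under every setting run; the exceptions were higher members of the chemokine, junction, proteasome, mTOR and amino acid transport lists. Levels under 1 CPM rest on few counts, and a gene not called there may still differ.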

Other observations

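Further groups held single members that changed by large factors. Of 13 tested complement genes 5 were higher and 4 lower, close to the background shares. Of 7 tested components 3 were higher and 4 not called, and of 6 regulators and receptors 2 were higher and 4 lower. The classical-pathway protease genes C1ra and C1s1 rose from 7.68 ± 0.251 to 28.6 ± 0.825 CPM and from 0.571 ± 0.133 to 2.51 ± 0.296 CPM. Of 20 nuclear receptor genes 9 were higher and 9 lower, with Thra, a thyroid hormone receptor, rising from 51.7 ± 0.887 to 104 ± 1.27 CPM and Nr1h3, the oxysterol receptor LXR alpha, falling from 2.17 ± 0.0878 to 0.878 ± 0.0801 CPM. Of 17 imprinted genes 8 were higher and 6 lower, with Peg10 falling from 98.4 ± 1.07 to 52.6 ± 0.943 CPM and Mest rising from 6.28 ± 0.685 to 10.5 ± 0.688 CPM. Of 18 targets of the coactivator YAP 13 were higher and 1 lower, with Ankrd1 rising from 6.58 ± 0.232 to 20.1 ± 0.141 CPM and the tissue factor gene F3 from 21 ± 1.59 to 40.6 ± 1.24 CPM. In the retinoid list, Rbp4, the plasma carrier of retinol, rose from 14.9 ± 0.229 to 37 ± 0.803 CPM and Cyp26b1, which degrades retinoic acid, fell from 4.35 ± 0.228 to 1.71 ± 0.357 CPM. Fgf10 and Fgf21, secreted growth factor genes, rose from 5.63 ± 0.671 to 22.1 ± 0.648 CPM and from 6.38 ± 0.807 to 20.3 ± 1.04 CPM, and Vegfd, a lymphatic growth factor gene, fell from 14.5 ± 0.817 to 6.48 ± 0.431 CPM.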
